A study of Mus musculus with 6 samples.

Results

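The genes described here are the 3 TGFβ ligands (*Tgfb1*, *Tgfb2*, *Tgfb3*), the 4 latent TGFβ binding proteins or LTBPs (*Ltbp1*, *Ltbp2*, *Ltbp3*, *Ltbp4*) and *Cilp*. They were taken by symbol from the deposited count table, in which these 8 are found among 49548 genes, and all 8 passed the filter on low counts. The table holds native cardiac fibroblasts (CFs) from 3 WT and 3 CharmeKO mice of 5 weeks on the C57BL/6J background, in 6 libraries. A design of 1 library per mouse was assumed, as neither the study's methods nor the labels state it. In CharmeKO mice a PolyA signal was inserted into the locus of the long noncoding RNA *Charme* in every cell, so the comparison does not single out an effect inside the CF. Per the study's methods, the cells were dissociated from the heart and depleted of hematopoietic lineages, without a positive sort for CFs, whereas the labels also list a growth medium.

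TGFβ is secreted as an inactive dimer that remains bound to its own propeptide. In most cells this small latent complex is linked to an LTBP, which is laid down on fibrillin microfibrils and fibronectin, and from this store the ligand is released by integrins and proteases. *Ltbp1* and *Ltbp3* encode the main carriers, *Ltbp4* encodes a weaker carrier that also serves in elastic fibre assembly, and the product of *Ltbp2* sits on microfibrils without binding latent TGFβ. *Cilp* encodes cartilage intermediate layer protein 1, a secreted matrix protein of CFs that binds TGFβ1 and dampens its signalling.

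The libraries held between 9595701 counts, in WT replicate 3, and 42101393 counts, in WT replicate 1. *Charme* itself was counted 26, 15 and 4 times in WT and 7, 0 and 0 times in CharmeKO, where a count of 0 allows up to 3. The labels give no sex, but WT replicate 1 and CharmeKO replicates 1 and 2 held 16783, 13553 and 9196 *Xist* counts, while WT replicates 2 and 3 and CharmeKO replicate 3 held at most 67 and between 886 and 2967 counts on Y-linked genes. CharmeKO replicate 1 held 136 Y-linked counts beside its *Xist*. This split is unequal between genotypes, so the 8 genes are also compared within its 2 sides. The 10 fibroblast markers summed to between 24873 and 33783 CPM (counts scaled to the TMM-normalized library total) in WT and between 27977 and 30316 CPM in CharmeKO, and 0 of them passed the test in edgeR. Most of that sum was *Gsn*, with a mean of 20829 CPM in WT and 21223 CPM in CharmeKO. The markers were mixed, with 5 log2 fold changes negative and 5 positive. Of the 10, 3 had an unadjusted p under 0.05 in edgeR: *Pi16* (log2 fold change −0.35), *Scara5* (−0.37) and *Dcn* (0.29). The CFs were not pure: 10 endothelial markers summed to between 6528 and 8541 CPM and 5 erythroid markers to between 24411 and 39207 CPM over all libraries. None of the endothelial, erythroid, pericyte, smooth muscle, leukocyte or Schwann cell markers passed the test in edgeR. DESeq2 called the pericyte marker *Cspg4* (adjusted p = 0.0158) and the smooth muscle marker *Smtn* (0.0295) lower. All CharmeKO libraries lay below WT for 3 of 6 pericyte markers (above for 0), against 8.59% of all genes tested. They lay above WT for 3 of 10 endothelial markers (below for 0), against 9.57%.

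2 of the 8 genes, *Ltbp2* and *Cilp*, passed the test in edgeR and were lower in CharmeKO CFs, in a fit that called 0.83% of the 15789 genes tested, 0.412% as lower and 0.418% as higher. 7 of the 8 had a negative log2 fold change, against 48.8% of all genes tested. Their middle value was −0.37, against 0.0096 over all genes tested. In 5 of the 8 (*Tgfb1*, *Ltbp2*, *Ltbp3*, *Ltbp4* and *Cilp*) each CharmeKO library lay below each WT library, which held for 8.59% of the genes tested, while none of the 8 lay wholly above WT, as 9.57% of the genes did. Groups that did not overlap in either direction were found for 18.2% of the genes tested. 5 of the 8 (*Tgfb3*, *Ltbp2*, *Ltbp3*, *Ltbp4* and *Cilp*) had an unadjusted p under 0.05 in edgeR, against 12.8% of the genes tested. In these bulk libraries, fewer cells of a type and less RNA per cell cannot be told apart.

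The DNA just before the start site is shown for the 2 genes that passed the test, beside that of *Ltbp4*, the most abundant of the 8, to let their promoters be compared. RefSeq promoters on GRCm38.p6 were at hand for 7 of the 8 genes and not for *Tgfb3*. The 250 bases before the start are written 5′ to 3′ on the strand of the gene, and capitals mark 3 motifs searched on both strands: CAGAC, the core bound by SMAD proteins, GGGCGG, the GC box, and TATANAA, the TATA box. No 2 of these motifs overlapped in the sequences shown.
*Ltbp2* (chr12:84876492-84876741, minus strand): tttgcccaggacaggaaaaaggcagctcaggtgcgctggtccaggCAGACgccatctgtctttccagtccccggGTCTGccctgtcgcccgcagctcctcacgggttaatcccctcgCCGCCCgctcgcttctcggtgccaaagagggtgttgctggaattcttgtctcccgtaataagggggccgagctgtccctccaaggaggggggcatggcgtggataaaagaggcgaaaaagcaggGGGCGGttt
*Cilp* (chr9:65264930-65265179, plus strand): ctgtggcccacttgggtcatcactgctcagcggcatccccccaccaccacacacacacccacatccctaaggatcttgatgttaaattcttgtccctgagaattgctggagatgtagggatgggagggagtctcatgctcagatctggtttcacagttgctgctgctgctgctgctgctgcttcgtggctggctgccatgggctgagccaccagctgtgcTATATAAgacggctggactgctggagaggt
*Ltbp4* (chr7:27337613-27337862, minus strand): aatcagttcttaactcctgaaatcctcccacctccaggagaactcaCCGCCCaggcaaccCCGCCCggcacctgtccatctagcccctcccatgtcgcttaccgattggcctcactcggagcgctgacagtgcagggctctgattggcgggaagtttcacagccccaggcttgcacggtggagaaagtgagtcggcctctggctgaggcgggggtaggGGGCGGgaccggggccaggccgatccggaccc

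The window of *Ltbp2* held CAGAC 2 times, at 205 and 176 bases before the start, and GGGCGG 2 times. The window of *Cilp* held neither of these but TATATAA at 30 bases before the start. *Ltbp4* has 3 listed starts, of which the one farthest upstream, shown here, held GGGCGG 3 times and the others 5 and 7 times, and all 3 lacked CAGAC. Of the 32851 promoter windows of this length, 42.2% held CAGAC, 32.7% GGGCGG and 10.4% TATANAA. The 2 genes that passed the test thus shared none of the 3 motifs in these windows, and a match is a description of the letters only.

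Among the ligands, *Tgfb1* encodes the form best known from fibrosis. It was measured at 240, 254 and 274 CPM in WT replicates 1, 2 and 3 and at 205, 193 and 240 CPM in CharmeKO replicates 1, 2 and 3. The CharmeKO libraries were the lower ones, but the highest of them lay just under the lowest WT library. The log2 fold change was −0.27 (SE 0.13, 95% interval −0.55 to 0.0087, adjusted p = 0.410 in edgeR), which did not pass the test.

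*Tgfb2*, the ligand needed for heart valve formation in the embryo, was measured at 63.5, 43.2 and 52.0 CPM in WT and 62.1, 45.2 and 52.6 CPM in CharmeKO. The groups overlapped fully, and libraries with the same number lay close to each other. The log2 fold change of 0.0097 had a 95% interval from −0.34 to 0.36 (adjusted p = 0.986 in edgeR), so changes within that interval in either direction are not excluded.

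*Tgfb3*, the third ligand, was measured at 91.7, 111 and 116 CPM in WT and 81.0, 76.3 and 93.5 CPM in CharmeKO. The groups overlapped by 1 library on each side, WT replicate 1 and CharmeKO replicate 3. Its log2 fold change of −0.35 (SE 0.13, 95% interval −0.63 to −0.066) did not pass the test (adjusted p = 0.291 in edgeR).

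**Figure D1:**
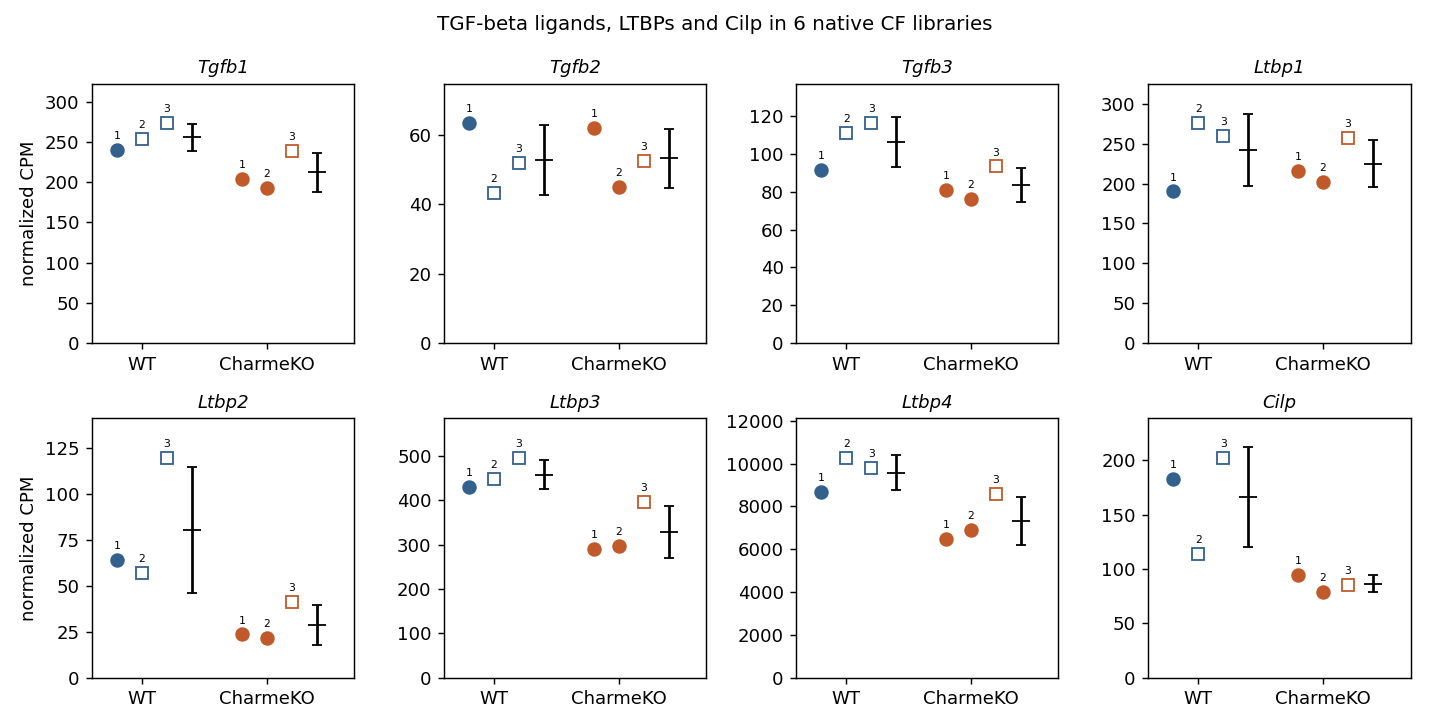
Normalized CPM of the 8 genes (y axes, from 0) in the 3 WT and 3 CharmeKO libraries (x axes), with the replicate number above each point and the mean ± SD at the side of each group. Filled circles are libraries high in *Xist* and open squares are libraries with Y-linked transcripts. *Ltbp2* lies at 57.0 CPM or more in WT and at 41.2 CPM or less in CharmeKO, and *Cilp* at 114 or more and 94.8 or less.

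The log2 fold changes of the LTBPs ran from −1.46 to −0.10. *Ltbp1*, a main carrier of latent TGFβ, was measured at 190, 276 and 260 CPM in WT and 216, 202 and 258 CPM in CharmeKO. WT replicate 1 was the lowest of all 6 libraries, and the groups overlapped. The log2 fold change was −0.10 (SE 0.16, 95% interval −0.45 to 0.24, adjusted p = 0.838 in edgeR). The values lay apart by the *Xist* split and not by genotype. The 3 libraries high in *Xist* held 190 CPM in WT and 202 and 216 CPM in CharmeKO, and the others 260 and 276 CPM in WT and 258 CPM in CharmeKO. With a term for that split the log2 fold change was 0.039, on the other side of 0.

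*Ltbp2*, the microfibril protein, was measured at 63.8, 57.0 and 119 CPM in WT, from 2715, 1498 and 1110 counts, and at 23.5, 21.5 and 41.2 CPM in CharmeKO, from 674, 526 and 1253 counts. Each CharmeKO library lay below each WT library, and replicate 3 was the highest of its group in both genotypes. The WT mean was 80.1 ± 34.2 CPM (SD, n = 3) and the CharmeKO mean 28.8 ± 10.8 CPM (SD, n = 3). *Ltbp2* fell by 1.46 on the log2 scale (SE 0.29, 95% interval −2.10 to −0.82, adjusted p = 0.0452 in edgeR), the largest change among the 8 genes in this fit.

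The call on *Ltbp2* lay close to the threshold of 0.05. It was lost with trends in GC content and length removed (adjusted p = 0.109 in edgeR) and with a filter of 10 counts in 5 libraries (0.0541). It was likewise lost without WT replicate 1 (adjusted p = 0.0752 in edgeR), without WT replicate 3 (0.119), without CharmeKO replicate 1 (0.258) and without CharmeKO replicate 2 (0.264), and the log2 fold change stayed between −1.82 and −1.07 over the 6 fits that each left out 1 library. Within the libraries high in *Xist*, WT replicate 1 held 63.8 CPM against a CharmeKO mean of 22.5 CPM, and within the others the WT mean was 88.2 CPM against 41.2 CPM in CharmeKO replicate 3. *Ltbp2* was thus lower in CharmeKO on both sides of the split, and with the split as a term the adjusted p was 0.0365 in edgeR.

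*Ltbp3*, the other main carrier, was measured at 430, 448 and 495 CPM in WT and 291, 298 and 396 CPM in CharmeKO. The CharmeKO libraries all lay below the WT libraries, with CharmeKO replicate 3 nearest to them. The log2 fold change of −0.48 (SE 0.15, 95% interval −0.80 to −0.16) did not pass the test in edgeR (adjusted p = 0.205) but did in DESeq2 (adjusted p = 0.0388), which called 2.5% of the genes tested, 1.52% as lower. Once the trend of each library with GC content and gene length was removed, the log2 fold change of *Ltbp3* was −0.27.

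*Ltbp4*, the elastic fibre LTBP, was measured at 8669, 10267 and 9785 CPM in WT and 6467, 6907 and 8568 CPM in CharmeKO. Again each CharmeKO library lay below each WT library and CharmeKO replicate 3 came nearest, by a small margin. The log2 fold change of −0.39 (SE 0.16, 95% interval −0.73 to −0.046) did not pass the test (adjusted p = 0.325 in edgeR). *Ltbp4* transcripts are 62.2% GC, against a median of 49.8% over the genes tested, and with the trend for GC content and length removed its log2 fold change was −0.13.

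*Cilp*, the antagonist, was measured at 183, 114 and 202 CPM in WT, from 7785, 3005 and 1881 counts, and at 94.8, 79.1 and 85.3 CPM in CharmeKO, from 2714, 1934 and 2594 counts. The CharmeKO libraries lay close together and below all WT libraries, while WT replicate 2 was well under the other WT libraries. The WT mean was 167 ± 46.3 CPM (SD, n = 3) and the CharmeKO mean 86.4 ± 7.89 CPM (SD, n = 3). *Cilp* fell by 0.94 on the log2 scale (SE 0.19, 95% interval −1.35 to −0.54, adjusted p = 0.0437 in edgeR and 7.55e-05 in DESeq2).

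The call on *Cilp* also lay close to the threshold. It was lost with trends in GC content and length removed (adjusted p = 0.0932 in edgeR). It was likewise lost without WT replicate 1 (adjusted p = 0.155 in edgeR), WT replicate 3 (0.169), CharmeKO replicate 1 (0.170), CharmeKO replicate 2 (0.264) or CharmeKO replicate 3 (0.0981), and without WT replicate 2 the adjusted p was 0.000462. The log2 fold change stayed between −1.16 and −0.78 over these fits. *Cilp* was lower in CharmeKO within the libraries high in *Xist* (183 CPM in WT replicate 1, 94.8 and 79.1 CPM in CharmeKO) and within the others (mean of 158 CPM in WT, 85.3 CPM in CharmeKO replicate 3). With the split as a term, the log2 fold change was −0.98 and the adjusted p 0.0589 in edgeR.

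For the other 5 genes, the log2 ratio of the CharmeKO to the WT mean was −0.27 among the libraries high in *Xist* and −0.14 among the others for *Tgfb1*, −0.22 and −0.28 for *Tgfb3*, −0.55 and −0.25 for *Ltbp3*, and −0.37 and −0.23 for *Ltbp4*. These 4 genes were thus lower in CharmeKO on both sides, with 1 or 2 libraries per group and no test. *Tgfb2* had −0.24 on the first side and 0.15 on the second.

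**Figure D2:**
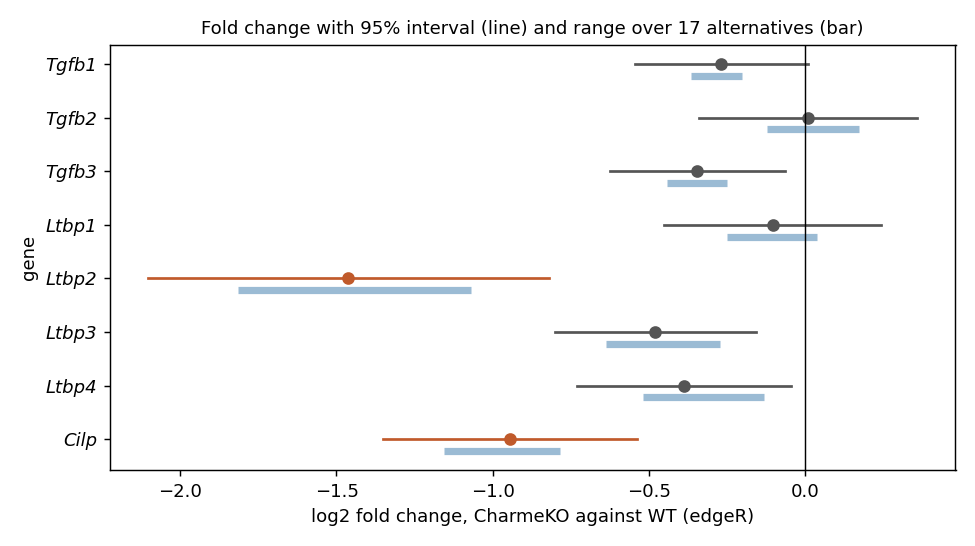
Log2 fold change of CharmeKO against WT in edgeR (x axis) for the 8 genes (y axis). Points and thin lines give the value and its 95% interval, orange where the adjusted p passed 0.05, and pale bars give the range over 17 alternative settings. *Ltbp2* (−1.82 to −1.07) and *Cilp* (−1.16 to −0.78) stay below 0 in all of these, while *Tgfb2* (−0.12 to 0.17) and *Ltbp1* (−0.25 to 0.039) lie on both sides of it.

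**Figure D3:**
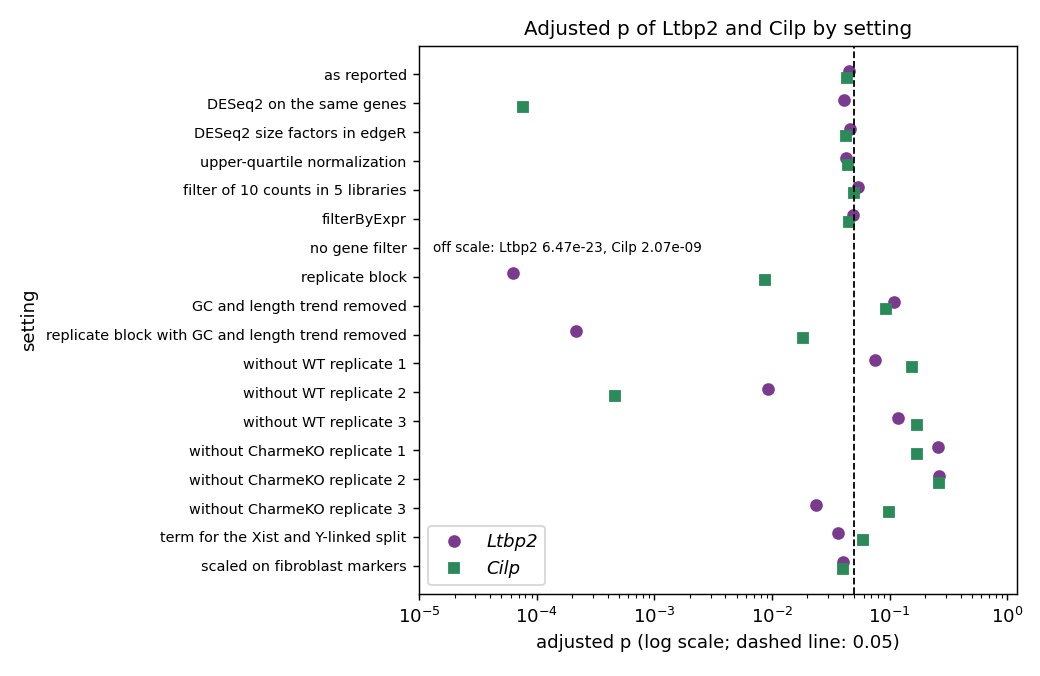
Adjusted p of *Ltbp2* (circles) and *Cilp* (squares) on a log x axis under each setting (y axis), with the threshold of 0.05 as a dashed line. Of 17 alternatives, *Ltbp2* passed in 11 and *Cilp* in 10. The values without a gene filter lie off the axis and are printed. Both counts include that fit, and the cause of its very small values was not looked into.

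Some markers of other cells moved with genotype. The 8 cardiomyocyte markers summed to between 343 and 440 CPM in WT and between 518 and 807 CPM in CharmeKO, and 3 of them passed the test as higher in edgeR (6 in DESeq2). That count was 1 without WT replicate 1 and 0 without WT replicate 3, CharmeKO replicate 1 or CharmeKO replicate 2. The 6 epicardial markers summed to between 57.8 and 75.0 CPM in WT and between 34.0 and 41.4 CPM in CharmeKO, most of it from *Wt1*, the 1 gene of them that passed the test as lower. Without *Wt1* the other 5 summed to 5.24, 21.4 and 12.6 CPM in WT and 0.699, 4.46 and 9.11 CPM in CharmeKO, so that the groups overlapped. All 6 epicardial log2 fold changes were negative (median −1.43), and 4 had an unadjusted p under 0.05 in edgeR (*Wt1*, *Upk1b*, *Krt19* and *Lrrn4*). *Upk3b*, *Msln* and *Lrrn4* in CharmeKO replicate 1 and *Upk1b* in CharmeKO replicate 2 were at 0 counts. The call on *Wt1* was lost without WT replicate 1, CharmeKO replicate 1 or CharmeKO replicate 2. The 8 genes of the dissociation response summed to between 18928 and 27143 CPM in WT and between 23755 and 25590 CPM in CharmeKO, with 2 called higher (*Hspa1a* and *Hspa1b*), a count of 1 without CharmeKO replicate 1 or 3 and of 0 without WT replicate 3 or CharmeKO replicate 2. The part of these in the fall of *Ltbp2* and *Cilp* was not tested. Scaled on the fibroblast markers, the log2 fold changes were −1.47 for *Ltbp2* and −0.95 for *Cilp*, with adjusted p = 0.0403 in edgeR for both.

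Divided by transcript length (TPM), *Ltbp4* stood far above the other 7 genes, with a mean of 4067 TPM over the 6 libraries. *Tgfb1* followed at 145 TPM and *Ltbp3* at 135 TPM, and these 2 overlapped in both genotypes. *Cilp* at 92.4 TPM and *Tgfb3* at 87.6 TPM overlapped in both genotypes too. The fall of *Cilp* changed this order: its mean was 119 TPM in WT, above *Tgfb3* (95.4) and *Ltbp1* (68.7), but 65.8 TPM in CharmeKO, where *Tgfb3* had 79.7 and *Ltbp1* 68.0 TPM and the ranges of *Cilp* and *Ltbp1* overlapped. Below *Cilp* and *Tgfb3* over the 6 libraries came *Ltbp1* at 68.3 TPM, *Tgfb2* at 28.8 TPM and *Ltbp2* at 20.6 TPM. *Ltbp2* lay between 20.8 and 45.0 TPM in WT, within reach of *Tgfb2* (22.3 to 33.2 TPM), but at 16.0 TPM or less in CharmeKO, below the 24.2 to 36.5 TPM of *Tgfb2*.

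The make-up of the LTBP pool per length was held by *Ltbp4*, at 94.7 ± 0.467% of WT and 94.9 ± 0.219% of CharmeKO LTBP transcripts (SD, n = 3 each). The share of *Ltbp2* was 0.551%, 0.417% and 0.908% in WT and 0.272%, 0.234% and 0.360% in CharmeKO, without overlap. The share of *Ltbp1* went the other way, with 1.26%, 1.55% and 1.51% in WT and 1.91%, 1.68% and 1.73% in CharmeKO. Both differences gave p = 0.1 in an exact two-sided permutation test, the smallest p that 3 libraries against 3 allow (0.28 adjusted over 14 such shares and ratios). The larger share of *Ltbp1* came without a rise in its CPM (log2 fold change −0.10 in edgeR). *Ltbp4*, most of the pool, had a log2 fold change of −0.39 that did not pass the test.

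Set against each of its relatives in the same library, *Ltbp2* was lower in CharmeKO, with log2 differences of −0.97 (to *Ltbp3*), −1.06 (to *Ltbp4*) and −1.37 (to *Ltbp1*). The mean log2 ratio went from −2.44 to −3.41, from −7.32 to −8.38 and from −1.27 to −2.64. The groups did not overlap in any of the 3 ratios (exact permutation p = 0.1 for each, the smallest possible). The log2 ratio of *Cilp* to *Tgfb1*, the antagonist against its ligand, was −0.15, −0.90 and −0.19 in WT and −0.87, −1.04 and −1.24 in CharmeKO. WT replicate 2 lay within the CharmeKO values, and the difference of −0.64 had an exact permutation p of 0.2.

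**Figure D4:**
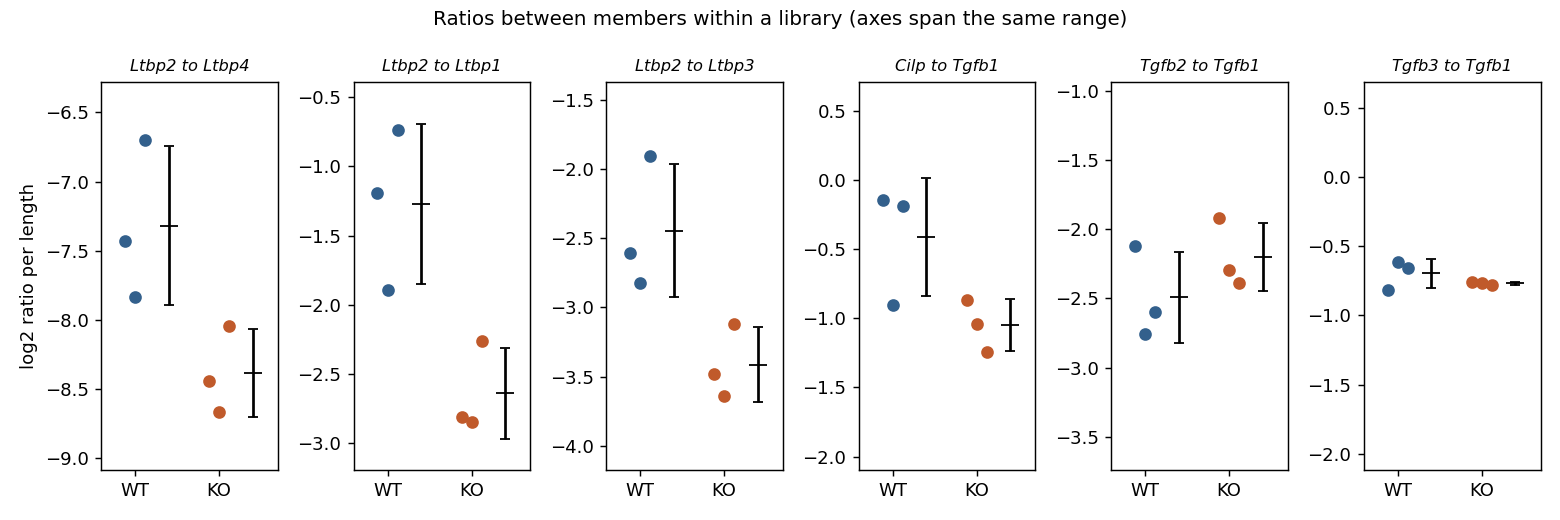
Log2 ratio per length (y axes, all spanning the same range) between pairs of genes within each library, for 3 WT and 3 CharmeKO (KO) libraries (x axes), with the mean ± SD at the side. The ratios of *Ltbp2* to the other LTBPs are lower in each CharmeKO library than in each WT library, while those between the ligands overlap.

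Within the ligands the groups overlapped in the shares of all 3 genes. *Tgfb1* made up 55.6 ± 0.0360% of the WT and 55.4 ± 1.28% of the CharmeKO ligand transcripts per length (SD, n = 3 each). *Tgfb3* made up 34.4 ± 2.43% and 32.5 ± 0.590%, and *Tgfb2* 10.1 ± 2.40% and 12.1 ± 1.85%, in the same order. LTBP transcripts outnumbered ligand transcripts by 14.0-fold to 18.4-fold per length in the 6 libraries, and the log2 ratio was 4.10 ± 0.09 in WT and 3.97 ± 0.14 in CharmeKO (exact permutation p = 0.4, n = 3 per group).

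Over the 6 libraries, *Ltbp3* ran with *Tgfb1* (Pearson r = 0.976), *Ltbp2* (0.961) and *Ltbp4* (0.961), whereas *Ltbp1* and *Cilp* gave an r of 0.020. These correlations describe 6 points that share genotype, depth and the *Xist* split, and carry no p. Among 8913 genes with a mean of at least 10 CPM, those most like *Ltbp2* were *Fam20c*, a kinase of secreted proteins (r = 0.997), *Bmp1*, a procollagen and LTBP protease (0.992), and *Col5a2*, a fibrillar collagen (0.991). Those most like *Cilp* were *Arl4c* (0.988), *Daam2* (0.986) and *Sorcs2* (0.986). Those most like *Ltbp1* were *Anks6* (0.995) and the Y-linked *Eif2s3y* (0.989) and *Ddx3y* (0.983), whose counts mark the *Xist* split.

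The microfibril and matrix anchors, on which LTBPs are deposited, had 1 of 13 genes lower and none higher, and 10 of the 13 log2 fold changes were negative (median −0.51). DESeq2 called 5 of them lower (*Mfap4*, *Mfap2*, *Mfap5*, *Adamtsl2* and *Fn1*), and 8 had an unadjusted p under 0.05 in edgeR. Of those 8, *Efemp1* was higher (log2 fold change 0.45), with each CharmeKO library above each WT library. For this and the lists below, the shares over all genes tested were 48.8% negative, 12.8% at such a p and 1.52% called lower by DESeq2. The gene that passed was *Mfap4*, a microfibril-associated glycoprotein, measured at 425, 321 and 533 CPM in WT and 231, 188 and 252 CPM in CharmeKO. *Mfap4* fell by 0.93 on the log2 scale (adjusted p = 0.0443 in edgeR), a call that was kept without WT replicate 2 and lost without any other library (0.0596 to 0.264), with the *Xist* split as a term (0.0839) and with GC and length trends removed (0.0618). Its size was −0.96 on the log2 scale with those trends removed and between −1.10 and −0.74 without 1 library. *Fbn1*, fibrillin 1, had a log2 fold change of −1.03 that did not pass (adjusted p = 0.143 in edgeR), and *Fn1*, fibronectin, one of −0.51 that passed in DESeq2 (0.0381) and not in edgeR (0.233).

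None of the 19 tested genes of processing and activation passed in edgeR, where their median log2 fold change was −0.059, although 5 had an unadjusted p under 0.05 and DESeq2 called 3 lower. The median was −0.12 without WT replicate 1 and −0.026 without WT replicate 3. The 3 genes called by DESeq2 were the proteases *Mmp14* (log2 fold change −0.54, adjusted p = 0.102 in edgeR and 0.00367 in DESeq2), *Bmp1* (−0.58, 0.117 and 0.00400) and *Mmp2* (−0.66, 0.123 and 0.00227). *Bmp1*, which cleaves LTBP1, was measured at 419, 392 and 490 CPM in WT and 268, 269 and 337 CPM in CharmeKO. The integrin chain *Itgav*, a part of the main TGFβ activating integrins, had a log2 fold change of −0.15, and *Itgb6* was too low to be tested.

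Of the 13 extracellular inhibitors and co-receptors, 0 passed in edgeR, with 12 log2 fold changes negative (median −0.23), 4 at an unadjusted p under 0.05 and 2 called lower by DESeq2 (*Fmod* and *Vasn*). The 1 positive gene, *Dcn* (0.29), was among those 4, and each CharmeKO library lay above each WT library. *Dcn* was also the most abundant of the list in CPM. The list summed to a mean of 9723 CPM in WT and 9598 CPM in CharmeKO. *Cilp2*, the paralog of *Cilp*, was low at 3.60, 2.82 and 2.37 CPM in WT and 0.838, 0.859 and 1.88 CPM in CharmeKO. Its log2 fold change of −1.30 did not pass (adjusted p = 0.228 in edgeR), though each CharmeKO library was below each WT library. *Vasn*, vasorin, another protein that traps TGFβ, had a log2 fold change of −0.66 that did not pass in edgeR (0.0884) but did in DESeq2 (0.00459) and in 6 of the 17 alternatives in all, among them the replicate block (0.0217). Those 6 include the fit without a gene filter (0.000119 in edgeR).

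Of the 13 receptors and SMADs, the proteins that carry the signal to the nucleus, 0 passed in edgeR and 0 in DESeq2. Their log2 fold changes, 9 of them negative, lay around a median of −0.11, with 4 at an unadjusted p under 0.05. All CharmeKO libraries lay below WT for 6 of the 13, against 8.59% of all genes tested, and above WT for 1, against 9.57%. *Smad3*, a transducer of TGFβ, was measured at 67.2, 68.1 and 66.4 CPM in WT and 54.1, 47.4 and 52.9 CPM in CharmeKO. The groups lay apart, but the log2 fold change of −0.39 did not pass (adjusted p = 0.156 in edgeR). The inhibitory *Smad6*, also among those at an unadjusted p under 0.05, had a log2 fold change of 0.30 (0.280). Smaller log2 fold changes were found for *Smad2* (−0.093), *Smad4* (−0.11), *Tgfbr1* (0.0091) and *Tgfbr2* (−0.13).

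Of 17 genes that respond to TGFβ in fibroblasts, 0 passed in edgeR, with 14 log2 fold changes negative (median −0.34), 5 at an unadjusted p under 0.05 and 2 called lower by DESeq2 (*Col1a1* and *Bhlhe40*). The 3 positive ones included *Acta2* (0.25) and *Tagln* (0.27), which did not pass and also stand among the smooth muscle markers. *Col1a1*, a chain of collagen I, was measured at 4374, 3132 and 4657 CPM in WT and 2180, 1733 and 3226 CPM in CharmeKO. WT replicate 2 and CharmeKO replicate 3 overlapped, and the log2 fold change of −0.77 did not pass in edgeR (adjusted p = 0.189) but did in DESeq2 (0.0102) and in edgeR with the replicate block (0.0180). The median of the 17 genes was −0.22 without CharmeKO replicate 2. *Tgif1*, a repressor induced by the pathway, had −0.47 (0.178).

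**Figure D5:**
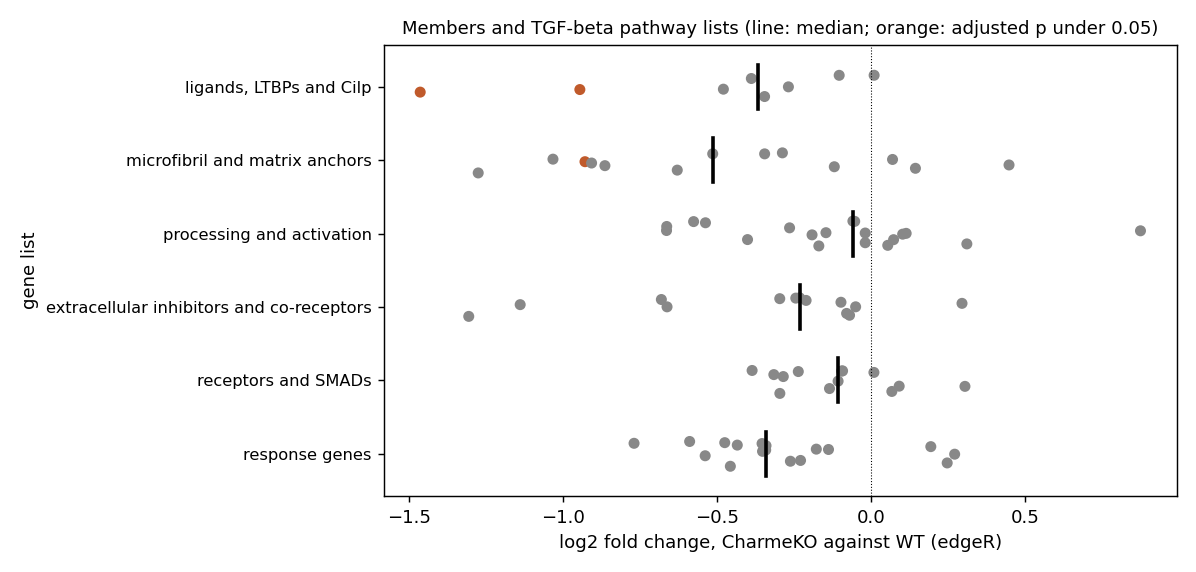
Log2 fold change of CharmeKO against WT in edgeR (x axis) for each tested gene (points, spread vertically for sight) of the 8 members and of 5 lists of pathway genes (y axis). Black lines are medians, from −0.51 for the microfibril and matrix anchors to −0.059 for processing and activation, and orange marks an adjusted p under 0.05, which *Ltbp2*, *Cilp* and *Mfap4* reach.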

How the data were processed

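Directional libraries were made from poly(A) RNA of native CFs of 3 WT and 3 CharmeKO mice. The authors aligned Q30-filtered reads to GRCm39 with STAR, counted reads by strand on Ensembl genes with *Charme* added, and deposited the raw counts without normalization or a gene filter. The test covered the 15789 genes that reached 10 counts in 2 or more libraries. CharmeKO was compared with WT by the quasi-likelihood test of edgeR 4.0.16 in R 4.3.3 after TMM normalization, with Benjamini-Hochberg adjusted p-values over all genes tested and a threshold of 0.05. SEs were derived from that test, and the biological coefficient of variation was 20.2%. The script was tested on simulated data. p-values measure the spread between these libraries, assumed to be 1 per mouse. TPM used exon lengths of GENCODE vM21 on GRCm38, another build than that of the counts. Counts of 0 and their limit of 3 cover counting error only. DESeq2 1.42.0, other scalings and filters, a replicate block, removal of GC and length trends and each library left out in turn were alternatives. The split by *Xist* and the scaling on fibroblast markers were added after seeing the data. Ratios and shares were planned as a description without a test, and their exact permutation tests were added to that plan. The 8 genes, the pathway and marker lists and the rule for naming list genes (the called genes, or up to 3 of lowest p per list) were chosen with earlier results of these data known. *Fbn1*, *Fn1*, *Itgav*, *Cilp2*, *Mfap2*, *Mfap5*, *Adamtsl2*, *Efemp1*, *Smad2*, *Smad4*, *Tgfbr1*, *Tgfbr2* and the genes of the marker lists were named after their values were seen. Figures were drawn with matplotlib 3.10.9.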

Additional observations from a re-analysis of the deposited data

How the results depend on the processing

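Against the 131 genes called in edgeR, DESeq2 called 394, no gene filter 699, the replicate block 302 and the block with GC and length trends removed 269, and leaving out 1 library gave between 61 and 349. Of the 8 genes, 2 were called as reported, 1 with the filter of 10 counts in 5 libraries (*Ltbp2* at 0.0541 and *Cilp* at 0.0499), 0 with GC and length trends removed (*Ltbp2* −1.27 and 0.109, *Cilp* −0.89 and 0.0932), 1 with the term for the *Xist* split, and between 0 and 2 without 1 library. Of the pathway lists, 1 gene was called as reported, 12 in DESeq2, 0 with the filter in 5 libraries, 16 without a filter, 12 with the replicate block, 0 with GC and length trends removed, 11 with both, 0 with the split term, and between 0 and 12 without 1 library. Without a gene filter *Ltbp3* also passed (0.0437). That fit gave *Ltbp2* an adjusted p of 6.47e-23 and *Cilp* 2.07e-09 in edgeR. The cause of such small values with 3 libraries a group was not looked into.

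The replicate numbers do not come from shared animals. Libraries with the same number deviated together with r = 0.216, 0.0535 and 0.161, and each correlated best with its own number. For number 2 the lead was small. WT replicate 2 gave 0.0391 with CharmeKO replicate 3, and CharmeKO replicate 2 gave 0.0340 with WT replicate 1. Libraries numbered 1, and those numbered 3, also share a side of the *Xist* split, so number and split cannot be told apart in these pairs. The sample labels also number the libraries in turn, WT and then CharmeKO for each replicate number, without saying what that order stands for. With the replicate block *Ltbp2* and *Cilp* were called at an adjusted p of 6.22e-05 and 0.00867 in edgeR.

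2 genes changed sign. *Tgfb2* turned to −0.0075 with GC and length trends removed, −0.0069 with the replicate block added to that, −0.048 with the split term and between −0.12 and 0.17 without 1 library. *Ltbp1* turned to 0.0100, 0.016 and 0.039 in the same order and lay between −0.25 and 0.0010 without 1 library. The other 6 kept a negative sign under all 17 alternatives, and no within-library ratio moved by more than its SD. The cause was not tested for any of these changes. With 3 libraries a group, ratios and shares cannot reach p = 0.05 in an exact permutation test, and WT replicate 3, at 9595701 counts, is the shallowest.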
